A study of Mus musculus with 4 samples.

Results

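The EphB receptors and the ephrin-B ligands were followed in embryonic mouse skin with and without an activated beta-catenin in the epithelium. The family has 8 genes here, the receptors Ephb1, Ephb2, Ephb3, Ephb4 and Ephb6 and the ligands Efnb1, Efnb2 and Efnb3, and members were taken by gene symbol alone, without regard to any measured value. Of these 8 genes 7 were measured, by 12 probe sets out of 45037 on the array (7 of 18193 named genes), and Ephb2 was not analysed here. The 4 arrays hold total RNA of dissected skin, epidermis with dermis, from 2 control and 2 mutant littermates at E14.5, the stage at which the first hair follicles form, with 1 embryo per array. The mutants carried KRT14-Cre, a recombinase driven by the promoter of a keratin gene of basal keratinocytes, and Ctnnb1(Ex3)fl/+, an allele from which Cre removes the exon that carries the degradation signals of beta-catenin. Their keratinocytes thus make a stabilised form of the Wnt effector from 1 allele. The labels call the controls littermates and give no genotype for them.

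Eph receptors are receptor tyrosine kinases whose ligands, the ephrins, sit on the membrane of a neighbouring cell, so that a signal passes only on contact. Ephrin-B ligands cross the membrane and signal back into their own cell when bound. Where receptor and ligand meet, cells usually repel each other, and borders form between cell groups. In the intestinal epithelium Ephb2 and Ephb3 are targets of Wnt signalling, and a countergradient of ephrin-B ligands keeps the crypt cells in place. In vessels, ephrin-B2 marks arteries and EphB4 marks veins.

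Across the family the ligand gene Efnb1 rose on 2 of its 3 probe sets and the receptor gene Ephb3 fell in mutant skin, while the remaining members did not pass the test. Signals were compared on the scale log2(signal + 7.7) with limma, with Benjamini-Hochberg adjustment over the 22519 probe sets whose mean signal reached 31.1, and a change was counted at an adjusted p under 0.05. All 12 probe sets of the family reached that level. Of these, 2 were higher in mutant skin, both of Efnb1, against 4.10% of all tested probe sets, and 1 was lower, that of Ephb3, against 2.93%. Either direction together, 7.03% of all tested probe sets passed. Before adjustment, 5 of the 12 had a p under 0.05, as did 22.9% of all tested probe sets. With each gene read by its brightest probe set, 0 of 7 genes passed as higher by the limma test (4.96% of all tested genes) and 1 passed as lower (3.78%), since the brightest probe set of Efnb1 missed the threshold. The median log2 fold change of the 7 genes was 0.08, and that of all tested genes was -0.02. Both mutant arrays lay on the same side of both controls for 9 of the 12 probe sets, 7 of them higher and 2 lower, as they did for 54.3% of all tested probe sets (26.6% higher, 27.7% lower). With 2 arrays a group, an exact two-sided permutation test of a single probe set cannot give a p under 0.33, so the tests rest on the spread that limma shares across probe sets.

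**Figure D1:**
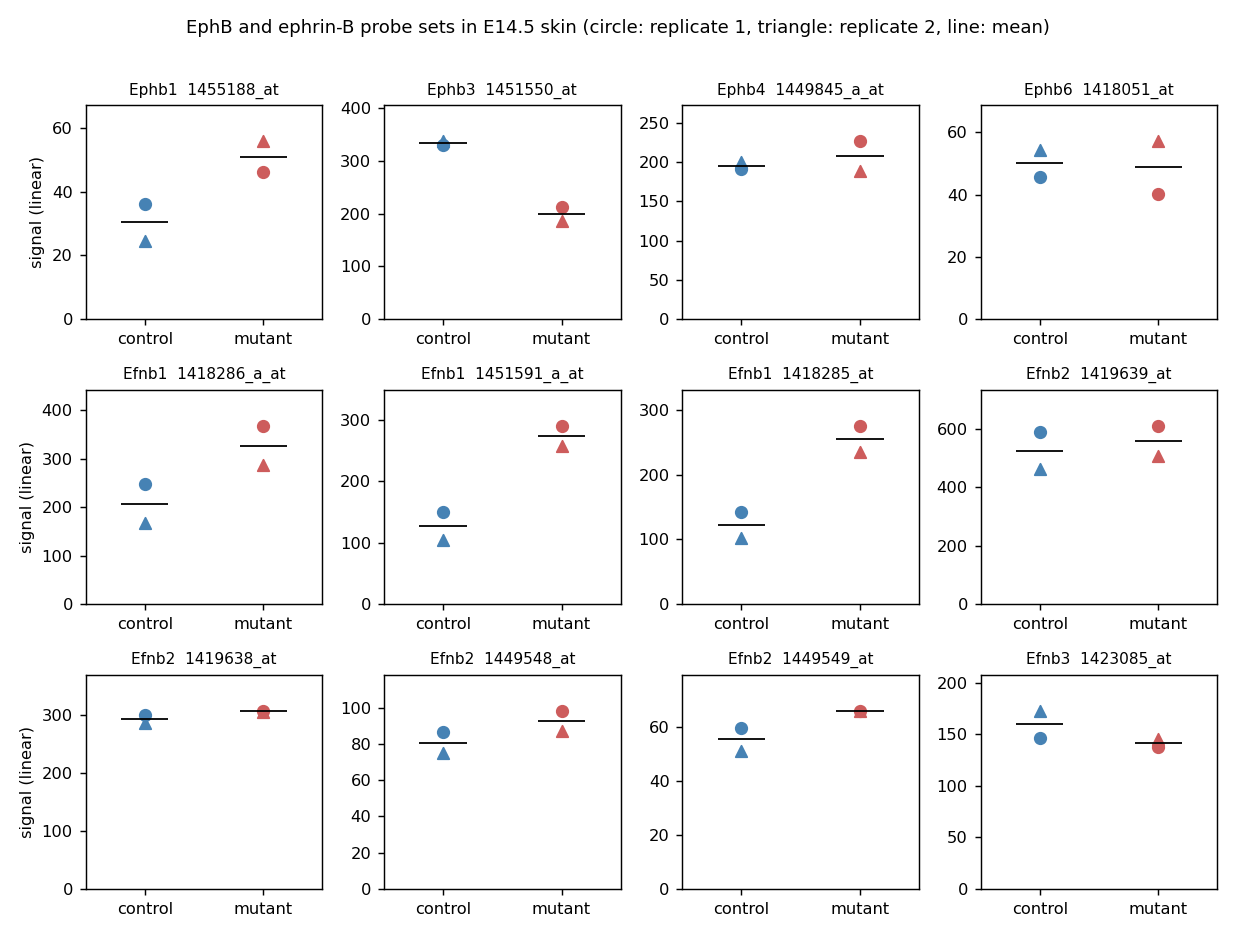
Signal of each EphB and ephrin-B probe set on the 4 arrays, on a linear axis that starts at 0. Blue marks are control and red marks mutant embryos, circles are replicate 1 and triangles replicate 2, and black lines are group means. The mutants lie above both controls on all 3 probe sets of Efnb1 and below both on that of Ephb3.

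The arrays were alike in level, the highest median signal being 1.15 times the lowest. Ctnnb1 itself had mean signals of 5819 ± 683 (controls) and 5985 ± 300 (mutants; SD, n = 2 per group) and a log2 fold change of 0.04 (limma adjusted p = 0.874) on its brightest probe set. Its other probe sets, 1450008_a_at and 1430533_a_at, were higher in both mutants than in both controls, by 0.26 and 0.32 on the log2 scale, and did not pass either (limma adjusted p = 0.171 and 0.155, unadjusted p = 0.0316 and 0.0264). The position of these probe sets against the deleted exon is unknown here, so they do not check the mutation. Krt14, the gene whose promoter drives Cre, had means of 2184 ± 486 (controls) and 1190 ± 362 (mutants; SD, n = 2 per group; log2 fold change -0.89, limma adjusted p = 0.0753), and it passed once control replicate 1 or mutant replicate 2 was left out (adjusted p = 0.0338 and 0.0115). The poly-A spikes, RNAs added to the samples before labelling, were 2.10-fold higher in controls over 24 probe sets. The amount added per sample is not known here, so changes are relative to the total signal of an array. Scaling to these spikes would add 1.07 to each log2 change, and that of Ephb3 would turn from -0.72 to 0.34.

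The promoters of Efnb1 and Ephb3, the members that changed, and of Efnb2, whose probe sets did not pass, are printed for comparison. Each runs 5′ to 3′ on the strand of the gene, from 250 bases before to 50 bases after a start site. The sequences are from RefSeq on GRCm38.p6, and 7 of the 8 genes had an entry. For Efnb1 and Efnb2 the site is the gene start. For Ephb3 it lies inside the gene, which starts at 21204620, so the window covers less of the sequence before the gene. The sites of Ephb2 and Ephb6 lie inside their genes as well. Capitals mark CCAAT or its reverse complement ATTGG, a common promoter element.

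Efnb1, chrX:99135811-99136110, plus strand: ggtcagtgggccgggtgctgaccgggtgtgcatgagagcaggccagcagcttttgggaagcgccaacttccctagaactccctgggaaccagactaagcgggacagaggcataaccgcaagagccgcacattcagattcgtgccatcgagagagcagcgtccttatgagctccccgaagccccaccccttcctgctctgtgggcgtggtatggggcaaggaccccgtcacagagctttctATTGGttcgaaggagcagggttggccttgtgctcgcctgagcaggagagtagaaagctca

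Ephb3, chr16:21204545-21204844, plus strand: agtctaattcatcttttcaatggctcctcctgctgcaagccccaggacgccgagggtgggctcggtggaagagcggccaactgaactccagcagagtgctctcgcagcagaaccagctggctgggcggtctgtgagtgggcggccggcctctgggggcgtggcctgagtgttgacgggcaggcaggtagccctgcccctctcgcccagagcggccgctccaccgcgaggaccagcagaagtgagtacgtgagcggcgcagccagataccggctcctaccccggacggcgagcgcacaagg

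Efnb2, chr8:8661193-8661492, minus strand: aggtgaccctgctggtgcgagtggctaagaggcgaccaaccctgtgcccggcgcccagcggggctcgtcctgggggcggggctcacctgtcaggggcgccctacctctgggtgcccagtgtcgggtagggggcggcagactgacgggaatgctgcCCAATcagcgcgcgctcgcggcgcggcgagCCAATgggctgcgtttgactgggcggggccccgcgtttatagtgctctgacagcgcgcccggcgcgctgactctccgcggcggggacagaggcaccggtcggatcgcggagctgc

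In these windows Efnb1 held 1 CCAAT element, starting 10 bases before the gene start, Efnb2 held 2, at 95 and 65 bases before it, and Ephb3 held 0. Among the 7 promoters of the family 5 held CCAAT on either strand, as did 37.4% of 32851 mouse promoters of the same length. The core letters bound by TCF and LEF factors, the DNA-binding partners of beta-catenin, were searched as CTTTGA and CTTTGT on both strands. They were found in 0 of the 7 windows, those of Efnb1 and Ephb3 included, and in 31.2% of all promoters, which says only that these letters are not in these windows. The family's promoters were rich in G and C, from 55.7% for Ephb1 to 76.3% for Ephb6, where the median of all promoters was 52.7%.

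Ephb3 encodes a receptor that in the intestine is expressed at the crypt base and holds Paneth cells there. Its single probe set read 330 and 338 in the controls and 213 and 187 in the mutants. Both mutants were thus far below both controls, and the controls were nearly equal. The means were 334 ± 5.62 and 200 ± 18.5 (SD, n = 2 per group). The log2 fold change was -0.72 (SE 0.13, 95% interval -1.03 to -0.42, limma adjusted p = 0.0223). With the offset added to the signals, control skin thus had 1.65 times the level of mutant skin. Of all tested probe sets, 3.67% fell at least as far. Leaving out control replicate 2 ended the call (log2 fold change -0.71, adjusted p = 0.0549), and so did omission of mutant replicate 2 (-0.63, adjusted p = 0.105), with the direction kept.

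Among markers of the tissues in the sample, the called ones of epidermis and of muscle all fell, as Ephb3 did. Other lists, described further on, rose, went both ways or had no called marker. Summed signals of dermal condensate, dermal fibroblast and nerve markers were also lower in both mutants than in both controls. Most of the condensate sum in controls was Crabp1 (5457 and 6046 in controls, 906 and 1010 in mutants). Among condensate markers 4 rose and 3 fell, with a median log2 fold change of 0.06. Of 12 epidermis markers 7 fell and none rose, and their summed signal lay between 19275 and 26775 in controls and between 7250 and 9713 in mutants. Skeletal muscle markers fell for 4 of 9, with sums of 4929 to 5736 in controls and 1561 to 3251 in mutants. Whole skin was read in bulk, so fewer cells of a type and less RNA per cell cannot be told apart, and the part of these tissues in the fall of Ephb3 was not tested.

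Ephb1, a receptor known from axon guidance, was dim. It read 36.2 and 24.5 in controls and 46.1 and 55.9 in mutants, so the groups did not overlap, but the controls stood farther apart than the nearest control and mutant. Its log2 fold change of 0.64 (SE 0.24, 95% interval 0.06 to 1.22) did not pass (limma adjusted p = 0.183).

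Ephb4, the receptor for ephrin-B2 on veins and lymphatic vessels, read 191 and 200 in controls and 227 and 189 in mutants. The lower mutant lay under both controls and the higher one above both. The log2 fold change was 0.08 (SE 0.14, 95% interval -0.26 to 0.42, limma adjusted p = 0.792), so at these 4 arrays a rise of up to 0.42 or a fall of up to 0.26 remains within the interval.

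Ephb6, a member whose kinase domain is catalytically inactive, read 45.6 and 54.5 in controls and 40.3 and 57.3 in mutants. The control values lay between those of the mutants, and the log2 fold change was -0.05 (SE 0.23, 95% interval -0.60 to 0.50, limma adjusted p = 0.936). Among the 4 measured receptors, then, 1 fell, 0 rose by the limma test and 3 did not pass.

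Efnb1 encodes ephrin-B1, a ligand of several EphB receptors, and lies on the X chromosome. Its brightest probe set, 1418286_a_at, read 248 and 167 in controls and 368 and 286 in mutants. The probe set 1451591_a_at read 151 and 105 in controls and 291 and 258 in mutants. The third, 1418285_at, read 142 and 103 in controls and 276 and 235 in mutants. On each of them both mutants exceeded both controls, control replicate 2 was the lowest array and mutant replicate 1 the highest. These probe sets target transcripts of 1 gene and are not independent replicates.

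The probe set 1451591_a_at averaged 128 ± 32.2 in control and 274 ± 23.7 in mutant skin (SD, n = 2 per group), for a log2 fold change of 1.07 (SE 0.19, 95% interval 0.62 to 1.53, limma adjusted p = 0.0230), or 2.10-fold. The probe set 1418285_at rose by 1.03 (SE 0.18, 95% interval 0.59 to 1.47, limma adjusted p = 0.0241), or 2.04-fold. Both folds are of signals with the offset added. For 1418286_a_at the log2 fold change was 0.65 (SE 0.21, 95% interval 0.14 to 1.16) and did not pass (limma adjusted p = 0.132). Whether the change differs between the probe sets was not tested. Of all tested probe sets, 2.86% rose at least as far as 1451591_a_at.

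Both calls of Efnb1 were lost without mutant replicate 1, at 0.99 on the log2 scale for 1451591_a_at (adjusted p = 0.0725) and 0.92 for 1418285_at (adjusted p = 0.0870). They were also lost when the filter on dim probe sets was left out, with 45037 tests in place of 22519 (adjusted p = 0.0541 and 0.0549). In turn 1418286_a_at passed without control replicate 1 (0.93, adjusted p = 0.0252). Its change moved with the array left out and was 0.38 and 0.47 with control replicate 2 and mutant replicate 1 omitted (adjusted p = 0.302 and 0.419). Mutant replicate 1 also stood apart on 8 cartilage markers, whose summed signal was 9750 there, 396 in mutant replicate 2 and 165 to 222 in controls. Without that array the Efnb1 changes kept their direction at the sizes given.

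The embryos also differed in sex, read here because Efnb1 is X-linked. Xist, the RNA of the inactive X chromosome, read 3376 in mutant replicate 2 and 10.1 to 24.7 on the other arrays, and Eif2s3y, on the Y chromosome, read 16.1 there and 453 to 502 elsewhere. By these genes mutant replicate 2 was female and the other embryos male. Its Efnb1 signals were below those of mutant replicate 1 on all 3 probe sets and above those of both controls. Without it the log2 fold changes of Efnb1 were 0.83, 1.16 and 1.14 for 1418286_a_at, 1451591_a_at and 1418285_at, with adjusted p = 0.118, 0.0374 and 0.0357.

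**Figure D2:**
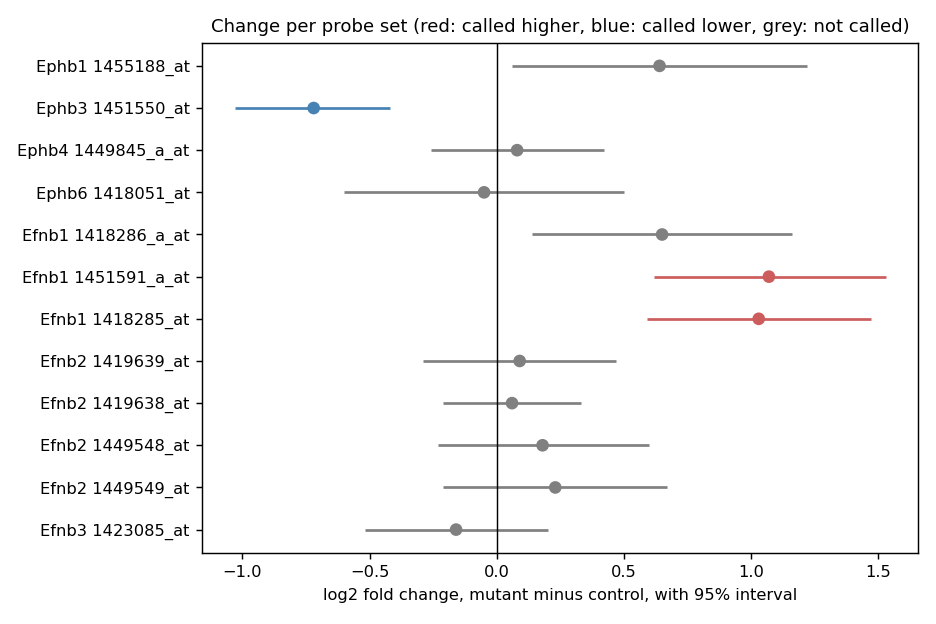
Log2 fold change of each probe set, mutant minus control, as points with the 95% interval of the limma fit as lines. Red marks the 2 probe sets of Efnb1 that were called higher, blue the probe set of Ephb3 that was called lower at -0.72, and grey the 9 that did not pass.

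Efnb2 encodes ephrin-B2, the ligand of EphB4, which in the embryo is made by arterial endothelium and by some epithelial and mesenchymal cells. Its brightest probe set, 1419639_at, read 591 and 462 in controls and 611 and 506 in mutants, and the groups overlapped. The next, 1419638_at, read 300 and 286 in controls and 307 and 305 in mutants, higher in both mutants by a margin of a few units. The dimmer probe sets 1449548_at and 1449549_at had means of 80.8 ± 8.36 and 55.4 ± 5.81 in controls, and in mutants of 92.8 ± 8.02 and 66.0 ± 0.167 (SD, n = 2 per group). The 4 log2 fold changes ran from 0.06 to 0.23 and none passed (limma adjusted p = 0.521 to 0.799; 0 had an unadjusted p under 0.05). The 95% intervals were -0.29 to 0.47 for 1419639_at, -0.21 to 0.33 for 1419638_at, -0.23 to 0.60 for 1449548_at and -0.21 to 0.67 for 1449549_at. All 4 end below the 1.03 and 1.07 of the called Efnb1 probe sets, while that of 1449549_at includes the 0.65 of the brightest one. The intervals of the genes overlap, however. That of 1449549_at reaches those of both called Efnb1 probe sets, which start at 0.62 (1451591_a_at) and 0.59 (1418285_at). That of 1449548_at reaches the latter, and the interval of Efnb1 1418286_a_at, from 0.14, overlaps all 4. Whether the changes of Efnb1 and Efnb2 differ was not tested.

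Efnb3, a ligand best known from the nervous system midline, read 146 and 173 in controls and 138 and 145 in mutants. Both mutants lay under both controls, by little, and the log2 fold change was -0.16 (SE 0.15, 95% interval -0.52 to 0.20, limma adjusted p = 0.586).

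Vessel markers were read beside Ephb4 and Efnb2. Of 12 endothelium markers 1 rose, Tek, an angiopoietin receptor (268 and 230 in controls, 507 and 553 in mutants), and 11 did not pass. Their summed signal was 2948 to 3034 in controls and 3524 to 3629 in mutants. Of 7 arterial markers tested 1 rose, the netrin receptor Unc5b (82.5 and 116 in controls, 411 and 386 in mutants). The arterial sums overlapped between the groups (2174 to 2225 and 2180 to 2303). They include the rise of Unc5b, so the overlap does not show that the other arterial markers were level. Among 5 venous and lymphatic markers tested Nrp2 rose and Flt4 fell, and 3 did not pass, with sums of 3839 to 4477 and 4687 to 4932. Leaving out control replicate 2 ended the calls of Nrp2 and Flt4 (adjusted p = 0.0760 and 0.0805), as did leaving out mutant replicate 2 (adjusted p = 0.149 and 0.0947) and, for Flt4, mutant replicate 1 (adjusted p = 0.123). Of the 13 alternatives, 8 kept the call of Nrp2 and 9 that of Flt4, and leaving out the filter also ended both (adjusted p = 0.0611 and 0.0549). Median centring and omission of the variance trend ended that of Nrp2 (adjusted p = 0.0690 and 0.0737). The part of vessels in the values of Ephb4 and Efnb2 was not tested.

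**Figure D3:**
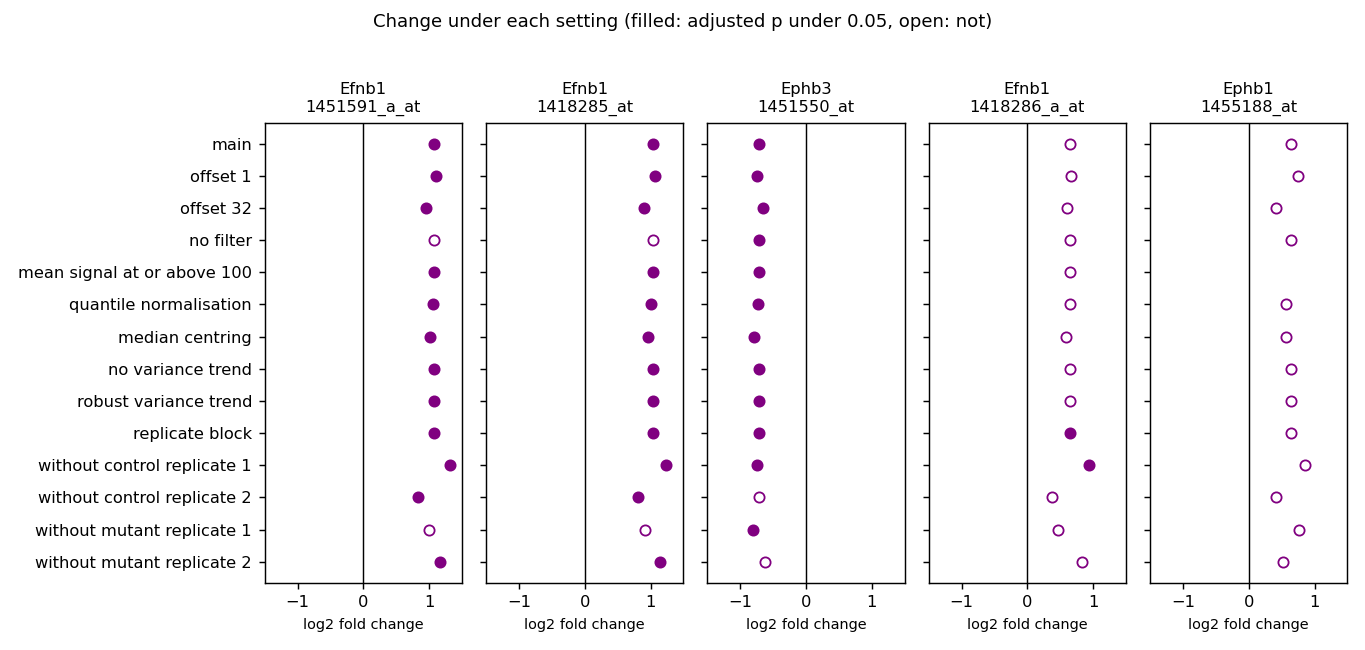
Log2 fold change of the members with the largest changes under the main setting and each of 13 alternatives, filled where the adjusted p was under 0.05. Ephb3 lies left of 0 and the probe sets of Efnb1 and Ephb1 right of 0 under every alternative drawn, and calls end mainly where an array is left out; Ephb1 has no value under the filter at 100, which it did not reach.

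Ephb3 was the one member called on its brightest probe set, and the genes whose pattern over the 4 arrays was most like its own were Aldh2, Tbx18 and Foxm1. Likeness was the Euclidean distance between log2 signals centred per gene, over 4 arrays and 1 probe set a gene. Aldh2, a mitochondrial aldehyde dehydrogenase, had a distance of 0.0540 and a log2 fold change of -0.69. Tbx18, a T-box factor of the dermal condensate, had a distance of 0.0582 and a log2 fold change of -0.72. Foxm1, a cell cycle transcription factor, had a distance of 0.0641 and a log2 fold change of -0.70. These genes were picked for their likeness, so their values are a description.

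The sister class is that of the EphA receptors and ephrin-A ligands. Of its 14 genes 10 were bright enough to be tested. By the limma test 1 rose and 1 fell, where 4.96% of all tested genes rose and 3.78% fell, and the other 8 missed the threshold. The median log2 fold change of the 10 was 0.38, against -0.02 for all tested genes. Epha7, a receptor known from neural patterning, read 78.2 and 76.9 in controls and 231 and 244 in mutants on its brightest probe set. Mutant levels were well above control levels, with a log2 fold change of 1.52 (SE 0.14, limma adjusted p = 0.00213), and all 3 tested probe sets of the gene passed. The other probe set, 1452380_at, was too dim to be tested here and is the one Eph or ephrin probe set among the 170 in the authors' deposited table, with a fold of 3.56. The table holds 0 probe sets of the EphB and ephrin-B genes, and it required at least a 2-fold change.

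Efna5, a membrane-anchored ephrin-A ligand, read 398 and 442 in controls and 252 and 211 in mutants. It fell by 0.84 on the log2 scale (SE 0.14, limma adjusted p = 0.0174) and missed the threshold with mutant replicate 2 left out (-0.71, adjusted p = 0.0628). Epha3 had log2 fold changes of 1.17 to 1.57 on 4 probe sets, none of which passed (limma adjusted p = 0.106 to 0.167; all 4 had an unadjusted p under 0.05), and its controls read 929 and 319 on the brightest. Epha8 was not tested and read 24.2 and 30.9 in controls and 4.60 and 6.31 in mutants.

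Partners that carry or limit signals of EphB receptors and ephrin-B ligands, such as adaptors, exchange factors, Src family kinases and proteases, were read too. Of 32 tested, each read by its brightest probe set as in the other lists, 1 rose and 1 fell. Among all tested genes 4.96% rose and 3.78% fell. The other 30 partners missed the threshold, and the median log2 fold change was -0.01. Ptpn13, a phosphatase that acts on ephrin-B, read 438 and 498 in controls and 281 and 271 in mutants, with both mutants far lower. It fell by 0.74 (SE 0.12, limma adjusted p = 0.0171) and missed the threshold with mutant replicate 2 left out (-0.72, adjusted p = 0.0618). Sdc2, a syndecan that EphB2 phosphorylates in neurons, read 359 and 321 in controls and 500 and 480 in mutants. It rose by 0.52 (SE 0.12, limma adjusted p = 0.0475), close to the threshold, and leaving out control replicate 2, mutant replicate 1 or mutant replicate 2 ended the call (adjusted p = 0.120, 0.204 and 0.151). The call was kept in 5 of 13 alternatives and also ended with an offset of 1, without the filter, with quantile normalisation, with median centring and with no variance trend in the model (adjusted p = 0.0502, 0.0850, 0.0541, 0.104 and 0.0975). A dimmer probe set, 1417012_at, rose by 0.66 (limma adjusted p = 0.0327) and kept its call in 7 of 13.

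Dab2, an endocytic adaptor, is counted among the 30 but passed on other probe sets, as Efnb1 did, and is named after its values were seen. Its brightest probe set missed the threshold at 0.61 (limma adjusted p = 0.0539). The probe set 1423805_at read 401 and 384 in controls and 663 and 709 in mutants, with both mutants well above both controls. It rose by 0.79 (limma adjusted p = 0.00884), with the call kept in 13 of 13 alternatives, and 1430604_a_at rose by 0.94 (limma adjusted p = 0.0423), kept in 9 of 13.

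Wnt target genes of the intestinal crypt, the setting in which EphB receptors are known as Wnt targets, were read beside them. Of 11 tested 3 rose and 1 fell, and the other 7 missed the threshold, around a median log2 fold change of 0.41. Notum, a Wnt-inactivating enzyme, rose by 2.26, Sox9 by 2.11 and the stem cell receptor Lgr5 by 0.93, while Tnfrsf19 fell by 0.88. Leaving out control replicate 2, mutant replicate 1 or mutant replicate 2 ended the call of Lgr5 (adjusted p = 0.0713, 0.115 and 0.138), and the former pair of omissions ended that of Tnfrsf19 (adjusted p = 0.0523 and 0.0591). Leaving out the filter also ended both (adjusted p = 0.0682 and 0.0533), as did leaving out the variance trend for Tnfrsf19 (adjusted p = 0.0573). Cd44, a hyaluronan receptor named after its values were seen, missed on its brightest probe set but rose on 1452483_a_at by 0.69 and on 1423760_at by 0.52 (limma adjusted p = 0.02 and 0.0344), with the calls kept in 9 and 6 of 13 alternatives.

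Other marker lists placed the family's changes among those of the tissue. All 9 tested hair matrix and shaft markers rose, from sums of 184 to 188 in controls to 9576 to 11907 in mutants, led by Krt33a, Krt33b, Krt35 and Krt34. The 4 epidermis markers with the largest fall were Krt1, Krt10, Krt15 and Grhl3, each called in 13 of 13 alternatives but Krt15. The call of Krt15 was kept in 9 of 13 and ended without control replicate 2, without the filter, without the variance trend and with the robust trend (adjusted p = 0.0761, 0.0744, 0.0659 and 0.194). Its change ran from -3.50 to -1.83 with 1 array left out. Of 10 dermal fibroblast markers 3 fell (Twist2, Dpt and Twist1), Prrx1 rose and 6 did not pass, with sums of 35543 to 40335 in controls and 29022 to 32857 in mutants, and leaving out either mutant ended the call of Prrx1 (adjusted p = 0.0826 and 0.0653), as did leaving out the variance trend (adjusted p = 0.0606). Col1a2, a collagen gene named after its values were seen, missed on its brightest probe set but fell on 1446326_at by 0.63 (limma adjusted p = 0.0414), a call kept in 7 of 13 alternatives. Of 9 dermal condensate markers 4 rose, among them Foxd1, Rspo3 and Trps1, 3 fell, among them Crabp1, and 2 did not pass. The sums were 7613 to 8153 in controls and 4130 to 4251 in mutants. Crabp1 made up most of the control sums, so the lower sums in mutants do not describe the list as a whole.

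Nerve and Schwann cell markers, of interest beside Ephb1 and Efnb3, went both ways. Of 12 tested 2 rose (Tubb3 and S100b), 3 fell (among them Isl1 and Fabp7) and 7 did not pass, with sums of 2302 to 2507 in controls and 2028 to 2121 in mutants. Leaving out control replicate 1 or mutant replicate 2 ended the call of Isl1 (adjusted p = 0.0730 and 0.0633), and so did omission of the filter or of the variance trend (adjusted p = 0.0882 and 0.0612). The call of S100b ended without the filter (adjusted p = 0.0539). Stmn2, a neuronal stathmin named after its values were seen, missed on its brightest probe set but fell on 1423280_at by 1.25 (limma adjusted p = 0.0487), a call kept in 7 of 13 alternatives.

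The muscle genes that fell were Myh3, Actn2, Ttn and Des. Leaving out either control ended the call of Ttn (adjusted p = 0.0693 and 0.0550), and that of Des ended on leaving out control replicate 2, mutant replicate 1 or mutant replicate 2 (adjusted p = 0.0712, 0.120 and 0.0618). The calls of Myh3, Actn2, Ttn and Des all ended when dim probe sets were kept in the test (adjusted p = 0.0614, 0.0613, 0.0882 and 0.0533). Without the variance trend those of Myh3, Actn2 and Ttn ended (adjusted p = 0.0572, 0.0536 and 0.0782), and with the robust trend those of Myh3 and Ttn (adjusted p = 0.0520 and 0.0775). None of the 8 cartilage markers passed with limma on all arrays, the lowest adjusted p being those of Hapln1 (log2 fold change 3.05, 0.0939) and Col2a1 (4.43, 0.146), both with an unadjusted p under 0.05. Hapln1 passed with either mutant omitted, at 1.49 for replicate 1 and 4.60 for replicate 2 (adjusted p = 0.0381 and 3.59e-05). Col2a1 passed with mutant replicate 2 left out (7.15, adjusted p = 3.2e-05). The part of each of these tissues in the values of the EphB and ephrin-B genes was not tested.

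**Figure D4:**
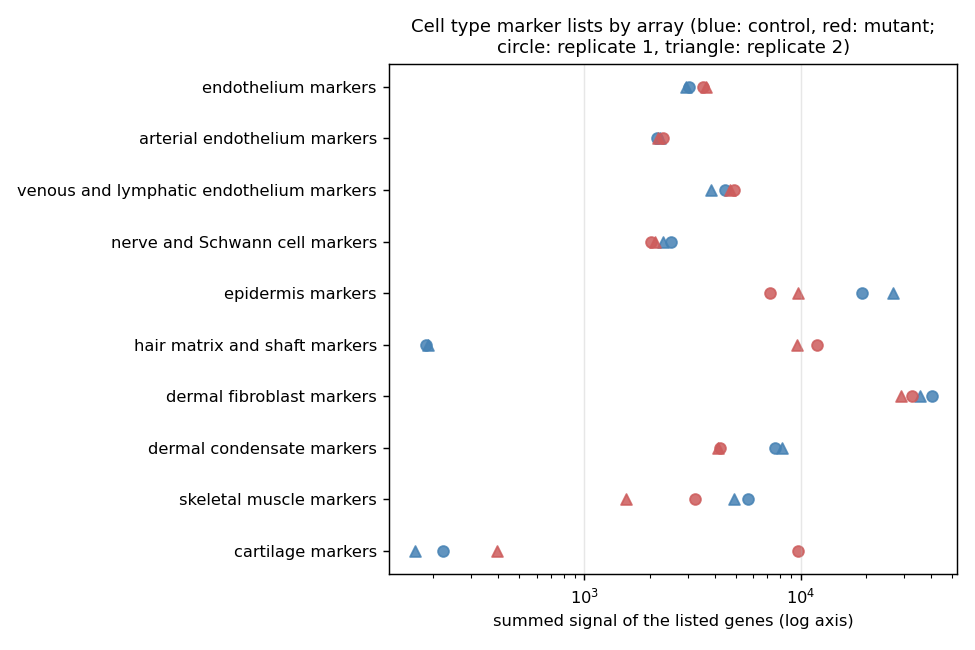
Summed signal of each list of cell type markers on each array, on a log axis, with controls in blue, mutants in red, circles for replicate 1 and triangles for replicate 2. Epidermis sums were 19275 and 26775 in controls against 7250 and 9713 in mutants, hair sums rose, and the cartilage sum of mutant replicate 1 stood apart.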

How the data were processed

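The deposited signal intensities, 1 per array for each probe set, came from GCOS and MAS5 per the submitters' processing notes; no version, scaling target or detection call was used here. The authors' deposited table of changed probe sets gives a ratio of mutant over control from GCRMA values, per the file headers. Probe sets were named from the platform's table, with symbols updated by gene identifier (GRCm38.p6): 34945 had 1 gene, 932 several, and 9160 were unnamed here. Signals, linear and alike in array median, were not normalized again. The offset of 7.7 was the percentile 25 of all signals, and the filter of 31.1 the median of the probe sets' mean signals. The filter lets a gene dim in 1 group pass through the other. Mutant and control were fitted with limma 3.58.1 in R 4.3.3 (lmFit, then eBayes on a variance trend, two-sided). The code was also run on simulated arrays with known changes. Their noise was normal, with the same spread for all probe sets of like signal, so that run does not vouch for the calls made here. Intervals are 95% intervals with 6.7 degrees of freedom. A gene was read by the probe set with the highest mean signal, beside all its probe sets for the EphB and ephrin-B genes. Genes named were those members, up to 4 called genes per list with the largest change (2 with the lowest adjusted p where none passed), the 3 genes most like the member with the largest change among those called on their brightest probe set, and the genes of the mutation and of sex. The rule that took the members used gene symbols and no measured value, but the family and the lists were chosen with earlier results of these data known. The number of arrays limits the precision, and the embryos are the replicates. Alternatives varied the offset, filter, scaling, variance model, replicate block and arrays.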

Additional observations from a re-analysis of the deposited data

How the results depend on the processing

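The count of called probe sets, 1583 in the main setting, was 880 without the filter, 2443 with the replicate number as a block, and 982 to 2171 when 1 array was left out. The arrays with the same number share only a number in the labels (correlation of their deviations 0.155). Genes of the family called higher were 0 in the main setting, 1 with the replicate block and 0 to 1 with 1 array left out; genes called lower were 1, and 0 to 1 with 1 array left out. Probe sets of the family called higher were 2, 0 without the filter, and 0 to 3 with 1 array left out. With the replicate block 1418286_a_at of Efnb1 passed (0.65, adjusted p = 0.0261). So did Krt14, Hapln1 and Col2a1 (adjusted p = 0.00146, 0.0343 and 0.0207). Without the filter 1451591_a_at (1.07) and 1418285_at (1.03) did not. With 1 array left out the log2 fold changes ran from 0.38 to 0.93, 0.83 to 1.32 and 0.81 to 1.24 for these 3 probe sets, from -0.81 to -0.63 for Ephb3, -0.08 to 0.27 and 0.03 to 0.09 for Efnb2 (1419639_at and 1419638_at), -0.04 to 0.21 for Ephb4, and -0.26 to 0.17 for Ephb6. With median centring 1419638_at of Efnb2 turned to -0.00 and Ctnnb1 to -0.02, and Ctnnb1 ran from -0.08 to 0.16 with 1 array left out (-0.01 without mutant replicate 1). The causes of these shifts were not tested, beyond the larger number of tests without the filter.

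On the scale of the poly-A spikes, an alternative chosen after seeing the data and given as values with no test, log2 fold changes were 1.72, 2.14 and 2.09 for Efnb1 (1418286_a_at, 1451591_a_at, 1418285_at), 1.16, 1.13, 1.25 and 1.30 for Efnb2 (1419639_at, 1419638_at, 1449548_at, 1449549_at), 0.91 for Efnb3, 1.70 for Ephb1, 0.34 for Ephb3, 1.15 for Ephb4 and 1.02 for Ephb6; the medians of nerve and of dermal fibroblast markers turned to 0.47 and 0.69. The filter at 100 gave no value for Ephb1, Ephb6 and the dimmer pair of Efnb2 probe sets. Signals near the offset and 2 arrays a group limit what could be seen.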
